A study of Mus musculus with 6 samples.

Results

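Elastic fibres and their microfibrils were followed through 10 genes, out of 17524 genes counted: Eln, Fbn1, Fbn2, Fbln1, Fbln2, Fbln5, Mfap2, Mfap4, Mfap5 and Emilin1. The genes were taken by name, and their estimated counts were summed over all transcript models of each. All 10 were detected in all 6 mouse heart libraries and passed the filter on low counts. The 3 control libraries, numbered 35, 36 and 37, carry the genotype label WT. The 3 TFEB overexpression libraries, numbered 34, 41 and 43, come from the line R26-LSL-TFEB [+/+]; Acta2-cre, in which Cre recombinase removes a stop cassette and so switches on transcription factor EB (TFEB), a regulator of lysosome and autophagy genes. All mice of both groups had the left anterior descending coronary artery ligated, so no library represents an uninjured heart. The Acta2 promoter is active in smooth muscle cells and in activated fibroblasts, and the labels do not say whether the controls carried Cre or the cassette. Neither the labels nor the design text gives age, sex, time after ligation or the number of hearts per library, so p-values measure the spread between these libraries, which may in part be technical.

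Elastin gives large arteries, valves and elastic scar tissue their recoil. Cells secrete it as soluble tropoelastin, which is deposited on a scaffold of fibrillin microfibrils and cross-linked there by lysyl oxidases. Fibulins and microfibril-associated proteins line and organise the scaffold, and emilins sit where elastin meets microfibrils. In the adult heart the fibres lie mainly in vessel walls, valves, epicardium and endocardium. Fibroblasts of a healing infarct make elastic fibre proteins along with collagen.

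The libraries held 12942486 to 14969275 estimated counts, a 1.16-fold range. The labels name heart tissue and also primary fibroblasts, but cardiomyocyte markers led the libraries: the 12 markers summed to 89895 to 121490 TPM, a measure per transcript length, in controls and to 86421 to 128199 TPM in TFEB overexpression, and none was at 0. Tfeb stood at 34.4, 33.8 and 41.4 CPM (counts scaled by library total and TMM factor) in controls 35, 36 and 37, against 45.4, 45.3 and 39.4 CPM in TFEB 34, 41 and 43, so the groups overlapped. Its log2 fold change was 0.25 (SE 0.12), and the labels do not say from which species the transgene's coding sequence was taken. Acta2, the gene whose promoter drives Cre, stood at 114 ± 20.1 CPM in controls, against 226 ± 59.6 CPM in TFEB overexpression (SD, n = 3 each), with no overlap and a log2 fold change of 0.98 (SE 0.22). It was not called by edgeR's quasi-likelihood test (adjusted p = 0.9999), and 4.75% of all tested genes had groups that did not overlap. Control 35 stood apart in atrial muscle genes. The 6 atrial markers summed to 55748 TPM there and to 995 to 25653 TPM in the other libraries. Nppa, which stressed ventricle also expresses, made up most of that sum in TFEB 34. In control 35 too it had the highest CPM of the 5 tested markers, at 13805. Sln, an atrial calcium pump regulator, stood at 632 CPM in control 35 and at 0 in control 36 and TFEB 34.

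No elastic fibre gene passed the test between TFEB overexpression and control. By edgeR's quasi-likelihood test, 0 of the 10 members were called at an adjusted p under 0.05, where 0% of the 13565 tested genes were called. Unadjusted p was under 0.05 for 0 members against 1.21% of all genes (164 genes). The groups overlapped for all 10, where 4.75% of all genes had groups that did not overlap. Fitted values were higher in TFEB overexpression for 9 of 10 members, with Fbln1 the exception, against 51% of all genes. The median log2 fold change of the members was 0.31, against 0.0030 over all tested genes. That median turned to −0.55 without TFEB 34, when 0 of 10 members had a higher fitted value. It was 0.010 without control 37, 0.76 without control 36, 0.76 without TFEB 43, and −0.016 by limma-voom, which averages on the log scale. DESeq2 and limma-voom called 0 members as well.

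**Figure D1:**
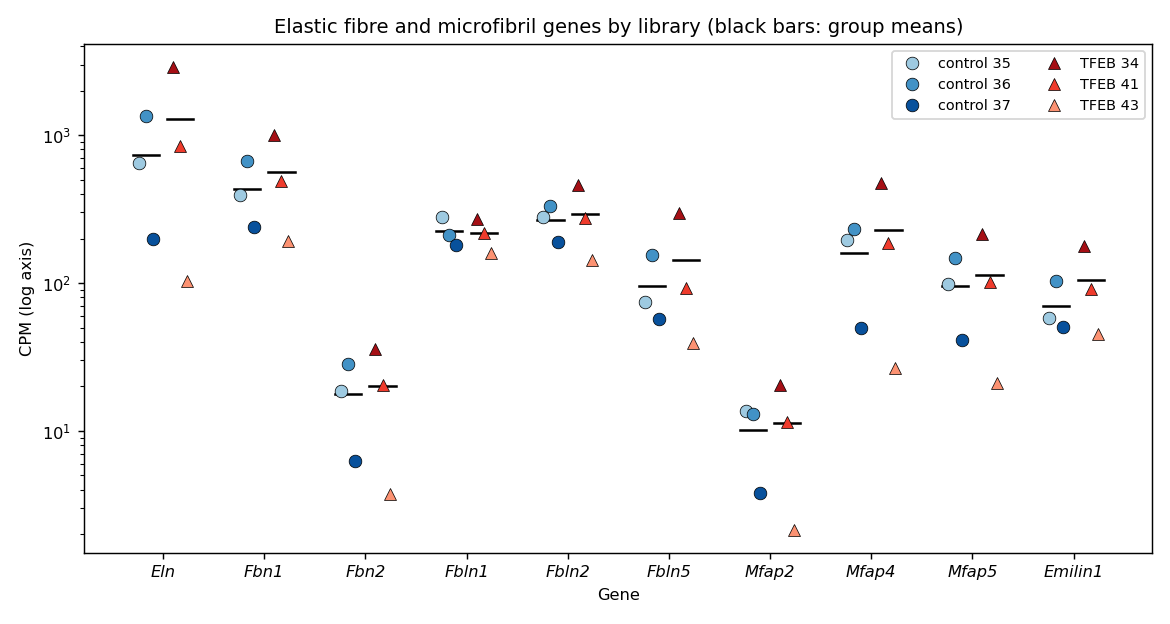
CPM of each elastic fibre and microfibril gene in every library on a log axis, with circles for controls, triangles for TFEB overexpression and black bars for group means (n = 3 each). TFEB 34 is the highest library for 9 genes and TFEB 43 the lowest for all 10, so the groups overlap everywhere.

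What the members shared was a wide spread between libraries of the same group. The median within-group SD of log2 CPM was 1.26 for the 10 members and 0.22 over all tested genes. TFEB 34 was the highest of the 6 libraries for 9 members, and 26.8% of all tested genes had their highest value there. TFEB 43 was the lowest for all 10 members, as it was for 25.5% of all genes. In all 10 the TFEB libraries stood in the order 34, 41, 43, and control 37 was the lowest control. Control 36 was the highest control for 8 members, the exceptions being Fbln1 and Mfap2, which were highest in control 35. In bulk tissue, fewer cells that express a gene and less RNA of it per cell cannot be told apart.

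Elastin, the elastic core, varied most. Eln (chr5:134702595-134747368, mm10) stood at 646, 1350.0 and 199 CPM in controls 35, 36 and 37, against 2885, 850.4 and 104 CPM in TFEB 34, 41 and 43. The highest and the lowest library, 27.8-fold apart, were both TFEB overexpression, and the 3 controls fell between them. The fitted log2 fold change was 0.81 (SE 1.14), which gives a fold of 1.75 with a 95% interval from 0.26 to 11.7. Its direction rested on TFEB 34, without which the log2 fold change was −0.62. Only 0.57% of tested genes had a larger within-group spread. The principal transcript model, NM_007925, held 93.3% to 98.2% of the gene's TPM in every library, so 1 form carried nearly all of the gene's reads.

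The fibrillins build the microfibril backbone, with fibrillin-1 as the main adult form and fibrillin-2 best known from development. Fbn1 (chr2:125300594-125506485) stood at 393, 669 and 239 CPM in controls 35, 36 and 37, against 1003, 493 and 192 CPM in TFEB 34, 41 and 43. This was the order of libraries seen for Eln, over a narrower range of 5.22-fold. The log2 fold change was 0.38 (SE 0.63), and −0.34 without TFEB 34. Fbn2, on chromosome 18, stood at 18.7, 28.3 and 6.22 CPM in controls, against 35.95, 20.3 and 3.72 CPM in TFEB 34, 41 and 43. It kept the same order over 9.67-fold, with a log2 fold change of 0.18 (SE 0.82) that turned to −0.56 without TFEB 34 and −0.22 without control 37. Fbn1 exceeded Fbn2 in TPM, which accounts for length, in 6 of 6 libraries, with group means of 75.3 ± 41.9 against 3.02 ± 2.02 TPM in controls and 100.3 ± 79.2 against 3.56 ± 3.05 TPM in TFEB overexpression (SD, n = 3 each).

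Fbn2 reads were divided among 3 transcript models. The model NM_010181 held 54.8%, 50.2% and 74.7% of the gene's TPM in controls 35, 36 and 37 and 20.0%, 45.7% and 18.6% in TFEB 34, 41 and 43. All 3 controls were above all 3 TFEB libraries, and the exact two-sided permutation p was 0.10, the smallest that 3 against 3 allows (0.60 after Benjamini-Hochberg adjustment over 30 transcript models). Among those 30, a minor model each of Fbn1, Fbln2, Fbln5 and Mfap4 also reached 0.10 in this test. Their mean shares ran from 0.10% to 0.77%. The counts behind it were low, 9.26 for this model in TFEB 43 and 61.0 in control 37, and the authors' quantification estimated how reads were divided between models.

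The small microfibril-associated glycoproteins MAGP-1 (Mfap2) and MAGP-2 (Mfap5) bind fibrillin, and Mfap4 binds elastin, fibrillin-1 and collagen. Mfap2 (chr4:141010424-141015976) stood at 13.6, 12.99 and 3.81 CPM in controls 35, 36 and 37, against 20.4, 11.4 and 2.15 CPM in TFEB 34, 41 and 43. The lowest of these rests on 26 counts. Mfap5 (chr6:122513584-122529290) stood at 98.4, 147 and 41.1 CPM in controls, against 215, 102 and 21.0 CPM in TFEB 34, 41 and 43.

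Mfap4 (chr11:61485431-61488708) stood at 196, 233 and 49.3 CPM in controls, against 472, 186 and 26.4 CPM in TFEB 34, 41 and 43. For all 3 genes, control 37 and TFEB 43 were the pair of low libraries, and the other 4 were higher. The highest and lowest libraries were 9.48-fold apart for Mfap2, 10.3-fold for Mfap5 and 17.8-fold for Mfap4. The log2 fold changes were 0.17 (SE 0.79), 0.24 (SE 0.81) and 0.51 (SE 0.98), and without TFEB 34 they were −0.57, −0.63 and −0.59. Without control 37 those of Mfap2 and Mfap5 were −0.22 and −0.12. Mfap4 exceeded Mfap5 in TPM in 6 of 6 libraries.

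The fibulins ranged from a gene that kept the library order of elastin to the least variable of the 10 members. Fibulin-5, a short fibulin, tethers tropoelastin to microfibrils and cells and is needed for elastic fibre assembly. Fbln5 (chr12:101746565-101819119) stood at 74.2, 156 and 56.7 CPM in controls 35, 36 and 37, against 296, 92.3 and 39.4 CPM in TFEB 34, 41 and 43. Its library order was that of Eln, its range 7.52-fold and its log2 fold change 0.58 (SE 0.75), or −0.54 without TFEB 34.

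Fibulin-2 binds tropoelastin, fibrillin-1 and basement membrane proteins. Fbln2 (chr6:91212460-91272540) stood at 280.4, 333 and 189 CPM in controls, against 461, 277 and 143 CPM in TFEB 34, 41 and 43. The range was 3.24-fold and the log2 fold change 0.13 (SE 0.43), or −0.35 without TFEB 34 and −0.06 without control 37.

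Fibulin-1 associates with elastin, fibronectin and other matrix proteins. Fbln1 (chr15:85205949-85286294) was the steadiest member, at 281, 209.6 and 180.4 CPM in controls, against 273, 218 and 159.6 CPM in TFEB 34, 41 and 43. Its range was 1.76-fold. Against all genes it was still variable: its within-group SD of log2 CPM was 0.36, where the median gene had 0.22, and 28.0% of tested genes had a larger one. The log2 fold change was −0.04 (SE 0.25), a fold of 0.97 with a 95% interval from 0.64 to 1.47. The sign turned without control 35 (0.15) and without TFEB 43 (0.13). Control 35, its highest library, was also the library with the high atrial values given above and the highest in the valve and endocardial marker list (658 TPM summed over 10 genes, against 65.4 to 153 TPM elsewhere). Of the 8 tested genes of that list, Dkk3 had the highest CPM in control 35, at 845, and it is on the atrial list too. Hapln1, Prg4 and Penk were highest in control 37 and Wt1 in control 36, and the other tested genes in control 35. The part of these marker genes' cells in the Fbln1 value was not tested.

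The level of Fbln1 was the sum of 2 transcript forms that differed in how far they varied. The gene has 2 transcript models that share the ends of 14 exons and then part. The short form, NM_001347088, ends with 1 further exon and the long form, NM_010180, with 3 further exons. The sequences below show where they part on mouse chromosome 15 (mm10, plus strand), with 15 shared bases in lower case and the first 120 bases of the unshared coding exon in capitals, at chr15:85251445-85251564 for the short and chr15:85263259-85263378 for the long form.
Fbln1 short form: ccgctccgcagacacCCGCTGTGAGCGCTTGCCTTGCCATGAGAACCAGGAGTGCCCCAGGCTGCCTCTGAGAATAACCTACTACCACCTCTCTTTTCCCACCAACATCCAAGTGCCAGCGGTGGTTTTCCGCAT
Fbln1 long form: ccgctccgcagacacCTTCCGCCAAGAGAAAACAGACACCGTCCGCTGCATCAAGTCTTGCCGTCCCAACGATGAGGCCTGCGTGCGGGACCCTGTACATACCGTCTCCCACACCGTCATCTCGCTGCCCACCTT
The 2 ends encode different C-termini, the difference by which fibulin-1 variants are known.

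The short form stood at 134, 88.8 and 91.4 CPM in controls 35, 36 and 37, against 99.6, 91.8 and 97.8 CPM in TFEB 34, 41 and 43. Apart from control 35, all libraries lay within 88.8 to 99.6 CPM, and TFEB 34 and TFEB 43 were 1.02-fold apart. With control 35 the range was 1.51-fold. The long form stood at 147, 121 and 89.0 CPM in controls, against 173, 126 and 61.8 CPM in TFEB 34, 41 and 43. TFEB 34 was 2.81-fold above TFEB 43 in that form, and the 3 TFEB libraries kept the order seen for elastin. The long form therefore held 53.7% of the gene's TPM in TFEB 34 and 29.6% in TFEB 43, with 39.3% to 47.5% in the controls. The group means, 43.01% ± 4.17 in controls and 43.7% ± 12.6 in TFEB overexpression (SD, n = 3 each), had an exact permutation p of 0.90, in a design whose smallest p is 0.10. Leaving out 1 library moved the difference of the means to between −4.27 (TFEB 34) and 7.78 (TFEB 43) percentage points.

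Fbln2 showed a split of the same kind at an alternative exon. NM_007992 has 18 exons, and NM_001081437 has 17 because it skips exon 9. That exon, at chr6:91259630-91259770 (mm10, plus strand), is 141 bases long and so adds 47 codons without a frame change. The lines below give the exon in capitals between 15 lower-case bases of each neighbour, and the junction made when it is skipped.
Fbln2 with exon 9: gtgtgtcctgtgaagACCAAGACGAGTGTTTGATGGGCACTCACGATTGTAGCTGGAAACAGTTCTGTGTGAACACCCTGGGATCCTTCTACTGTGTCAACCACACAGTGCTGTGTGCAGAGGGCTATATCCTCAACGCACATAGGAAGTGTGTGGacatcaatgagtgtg
Fbln2 without exon 9: gtgtgtcctgtgaagacatcaatgagtgtg

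The form with the exon stood at 180.05, 182 and 123 CPM in controls 35, 36 and 37, against 183, 147 and 87.7 CPM in TFEB 34, 41 and 43. The form without it stood at 96.8, 148 and 65.2 CPM in controls, against 273, 129 and 53.2 CPM in TFEB 34, 41 and 43. TFEB 34 exceeded TFEB 43 by 2.09-fold in the first and by 5.13-fold in the second. The skipping form held 59.9%, 47.5% and 38.1% of the gene's TPM in TFEB 34, 41 and 43 and 35.3%, 45.2% and 35.3% in controls. The means of 48.5% ± 10.95 and 38.6% ± 5.76 (SD, n = 3 each) had an exact permutation p of 0.20, or 0.86 adjusted over 30 models.

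**Figure D2:**
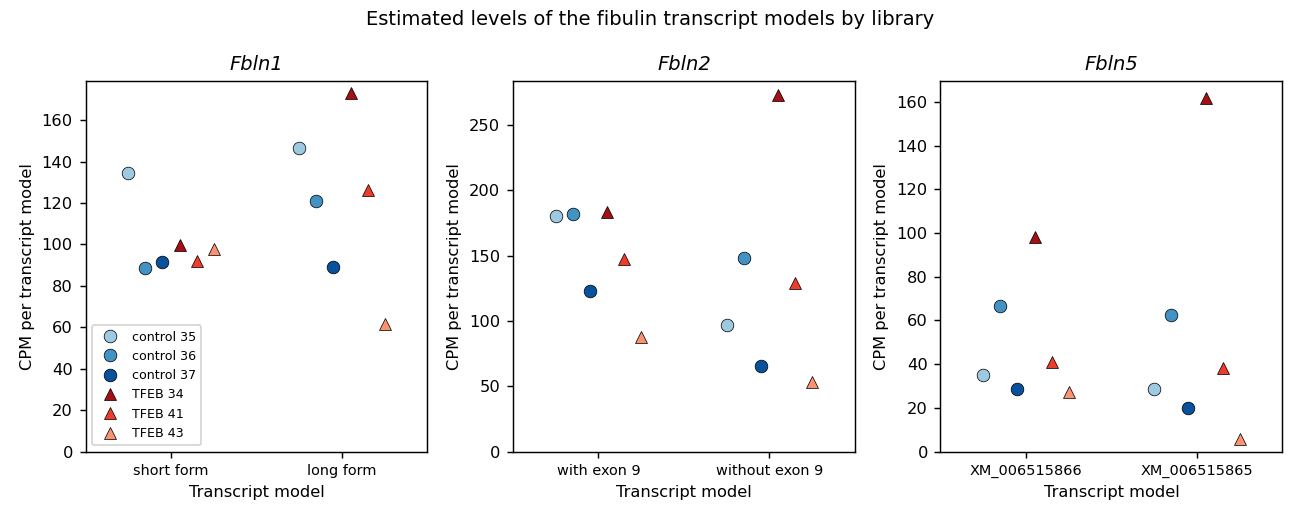
CPM per transcript model of Fbln1, Fbln2 and Fbln5, with 1 point per library (circles control, triangles TFEB overexpression). The short Fbln1 form stays between 88.8 and 99.6 CPM outside control 35, while the right-hand form of each gene spreads more widely.

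Fbln5 was likewise divided between predicted models. XM_006515865 stood at 28.5, 62.5 and 20.1 CPM in controls 35, 36 and 37, against 162, 38.3 and 5.95 CPM in TFEB 34, 41 and 43, a 27.2-fold range. XM_006515866 stood at 34.8, 66.8 and 28.6 CPM in controls, against 98.0, 40.8 and 27.1 CPM in TFEB 34, 41 and 43, a 3.62-fold range. The more variable model thus held 61.7% of the gene's TPM in TFEB 34 and 18.4% in TFEB 43, with 41.5% to 47.5% in the controls and an exact permutation p of 1.00 between the groups. The difference of the group means in this share was −11.3 percentage points without TFEB 34 and 10.3 without TFEB 43. For these 3 fibulin genes the shares are the authors' estimates, and no error of the estimate is given.

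Emilin-1 lies at the interface of elastin and microfibrils and restrains TGF-beta precursor processing. Emilin1 (chr5:30913387-30921279) stood at 57.9, 103 and 50.7 CPM in controls 35, 36 and 37, against 177, 91.5 and 45.3 CPM in TFEB 34, 41 and 43. It had the order of Eln over 3.90-fold, and the smallest unadjusted edgeR p of the members, 0.30, with a log2 fold change of 0.57 (SE 0.51). Without TFEB 34 the log2 fold change was −0.04, the closest to 0 of the 9 that changed sign.

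**Figure D3:**
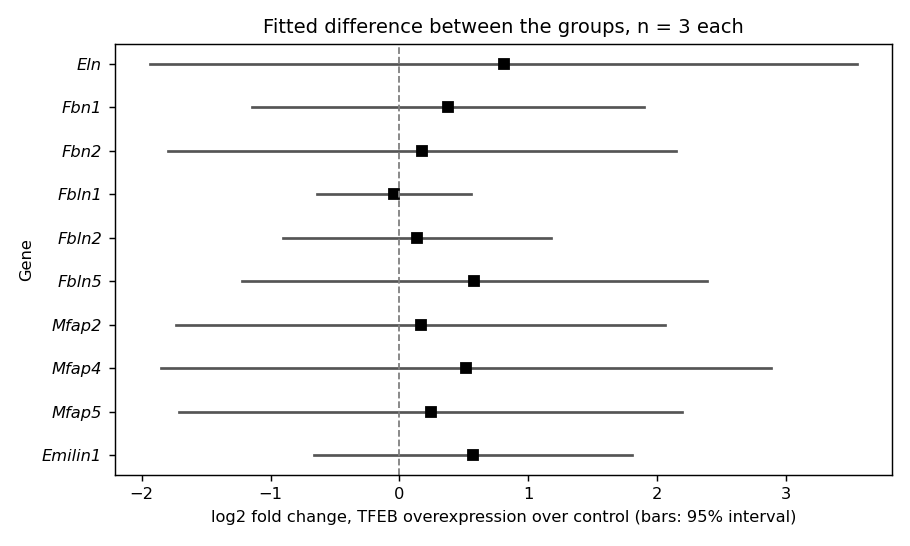
Fitted log2 fold change of each gene, TFEB overexpression over control, as squares with 95% intervals from edgeR (n = 3 libraries each). Every interval includes 0, and the interval of Fbln1, from 0.64-fold to 1.47-fold, is the narrowest.

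Levels are comparable between genes in TPM. Elastin was the most abundant member by mean over the 6 libraries (488 TPM), followed by Mfap4 (263), Fbln1 (145), Mfap5 (144), Fbln2 (114), Fbn1 (87.8), Fbln5 (82.5), Emilin1 (46.0), Mfap2 (24.2) and Fbn2 (3.29). In controls, neighbours in this order differed by less than the SD of at least 1 of the pair, apart from Mfap2 and Fbn2 (22.5 ± 12.8 and 3.02 ± 2.02 TPM, SD, n = 3 each). That SD is between libraries and ignores that the genes were measured in the same libraries. Within every library, Eln exceeded Mfap4, Fbln2 exceeded Fbn1, Fbln5 exceeded Emilin1 and Mfap2 exceeded Fbn2. The other neighbours changed order in at least 1 library. The summed TPM of the 10 genes was 1159, 1785 and 485 in controls 35, 36 and 37 and 3375, 1247 and 335 in TFEB 34, 41 and 43, a 10.1-fold range with both ends in TFEB overexpression (exact permutation p = 0.80 between the groups).

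The mixture changed with the total. Eln made up 42.9% of the sum in TFEB 34, 36.8% in control 36, 31.7% in TFEB 41 and 25.7% in control 35, and was the leading member in those 4. In the low libraries, control 37 and TFEB 43, it made up 17.7% and 13.2%, and Fbln1 led with 23.1% and 30.5%. Fbln1 held 5.53% in TFEB 34. Fbln2 also held more in these low libraries, 14.4% and 15.5%, against 5.93% to 9.58% elsewhere. Mfap5 held a share from 7.71% to 11.6% and Fbn1 from 5.51% to 8.99%. Between the groups, the exact permutation p of the 10 shares ran from 0.20 (Mfap5) to 1.00, all 1.00 after adjustment over the 10. With 0.10 as the smallest p, this test could not have separated them. The difference of the group means for Eln was 2.53 percentage points, −4.30 without TFEB 34 and 10.6 without TFEB 43, and for Fbln1 it was 0.065, 5.19 and −7.28.

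**Figure D4:**
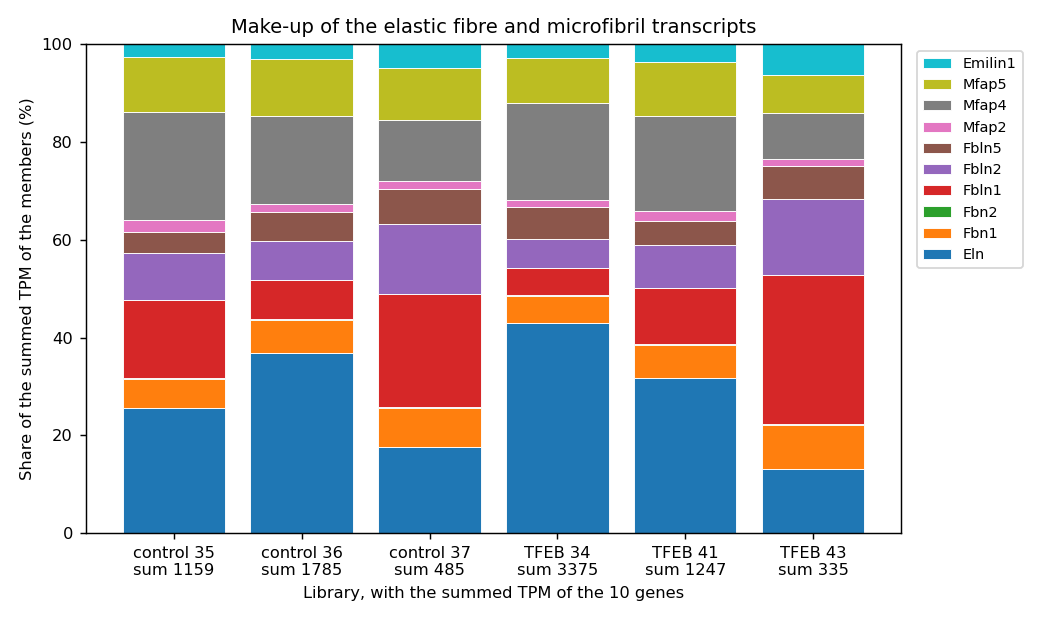
Share of each gene in the summed TPM of the 10 genes, in percent, 1 bar per library with the sum beneath it. Eln takes 42.9% in TFEB 34 and 13.2% in TFEB 43, and Fbln1 takes 5.53% and 30.5%.

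Set against fibrillar collagen, the members ran without a clear break from genes that kept pace with it to genes that did not. Collagens I and III are the main fibrils of infarct scar, and the summed CPM of Col1a1, Col1a2 and Col3a1 was 5273, 7280.1 and 1326 in controls 35, 36 and 37 and 11571, 6872 and 989 in TFEB 34, 41 and 43, an 11.7-fold range. The log2 ratio of Mfap4 to this sum stayed within 0.61 over the 6 libraries, although Mfap4 itself ranged over 4.16 on the log2 scale. That of Fbn2 stayed within 0.67 and that of Mfap2 within 0.79. Mfap5 stayed within 1.06 and Eln within 1.25, Eln being higher relative to collagen in TFEB 34 (−2.004) than in any other library (−3.25 to −2.43). Fbn1 ranged over 1.44 and Fbln5 over 1.67.

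Fbln2, Emilin1 and Fbln1 ranged over 1.85, 2.06 and 2.77, more than their own CPM did. In each, the ratio was highest in TFEB 43 and control 37, where collagen was lowest. The Fbln1 ratio, for example, was −2.63 and −2.88 there and −5.41 in TFEB 34. The ratios of Mfap5, Fbn1 and Fbln5 were highest in these libraries too. The collagen sum itself ranged over 3.55 on the log2 scale, so a gene of narrow range must have a wide ratio. Between the groups, where the smallest p is again 0.10, the mean ratios differed by −0.35 (Mfap2) to 0.22 (Emilin1), with exact permutation p of 0.20 or more and 1.00 after adjustment over the 10.

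**Figure D5:**
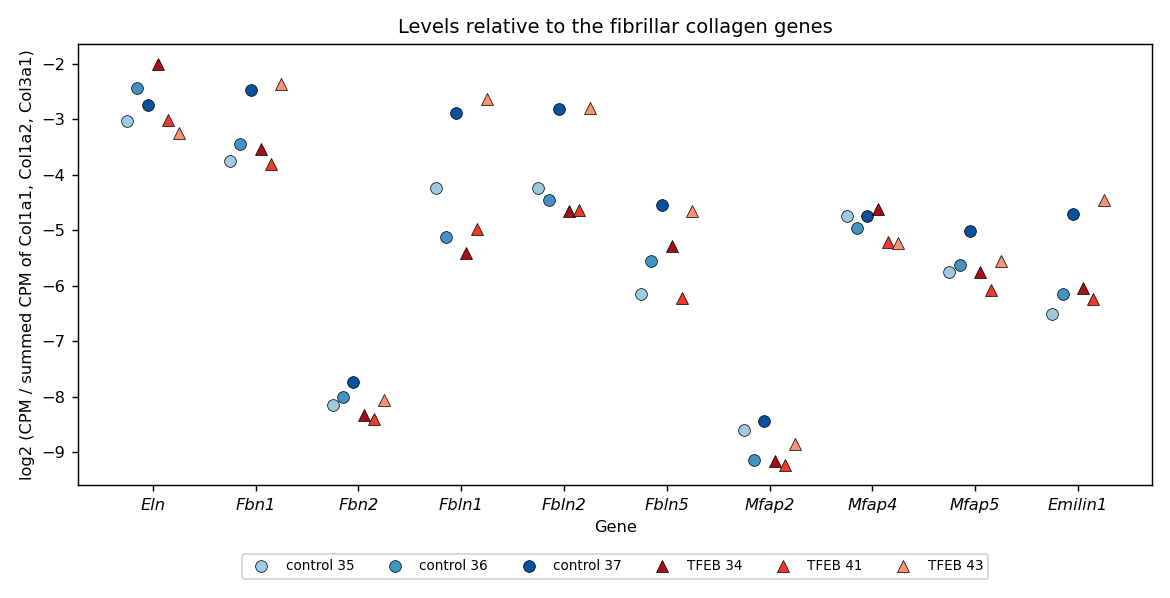
log2 of each gene's CPM over the summed CPM of Col1a1, Col1a2 and Col3a1, 1 point per library. Points of Mfap4 lie within 0.61 of each other and those of Fbln1 spread over 2.77, with control 37 and TFEB 43 at the top.

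The genes with the most similar profile were found for each member as those with the smallest root mean square difference of centred log2 CPM over the 6 libraries, among 11087 other genes that averaged 5 CPM or more. Eln lay closest to Fn1, the fibronectin gene (0.26), then Col5a2 and Col1a2. Mfap4 lay closest to Col1a2 (0.23), Col1a1 and Gxylt2. Fbn1 was matched by Sparc, a collagen-binding matricellular protein, within 0.048, then by Adamts12 and Fibin. Fbn2, Mfap2 and Mfap5 shared Nupr1 and Pamr1 among their 3 nearest genes. Col3a1 was the other for Fbn2, Col14a1 for Mfap2 and Fstl1 for Mfap5. Fbln5 lay closest to Ism1 (0.18), Dok1 and Adamts12.

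The less variable members had other neighbours. Emilin1 lay closest to the actin cross-linker gene Actn1 (0.036), Rab31 and Myo7a. Fbln2 lay closest to Adamts10, the gene of a fibrillin-binding metalloprotease (0.047), then to Irf5 and Rnf149. Fbln1 lay closest to Zfp521 (0.043), Dpm3 and Ctsh. Among the members themselves, Fbn2 and Mfap5 were the closest pair (0.13) and Eln and Fbln1 the farthest (1.39). These are likenesses over 6 libraries in 2 groups and are given as a description.

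None of the other genes of elastic fibre biology passed edgeR's test either. Of the lysyl oxidases, the cross-linking enzymes, 5 of 5 were fitted higher in TFEB overexpression, and their median was 0.86 on the log2 scale. Without TFEB 34 it was 1 of 5, with a median of −0.20. Lox stood at 71.9, 279 and 14.4 CPM in controls 35, 36 and 37, against 579.6, 177 and 9.83 CPM in TFEB 34, 41 and 43. It had the wide range of Eln and the same pair of low libraries, with a log2 fold change of 1.07 (SE 1.42) that was −0.38 without TFEB 34. The values were 0.70 (SE 0.67) for Loxl1, 1.05 (SE 1.06) for Loxl3 and 0.86 (SE 0.65) for Loxl4.

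Latent TGF-beta binding proteins, relatives of the fibrillins, were higher in 3 of 4 (median 0.26), and in 0 of 4 without TFEB 34. Ltbp2, which binds fibrillin-1 and fibulin-5, stood at 28.5, 239 and 16.8 CPM in controls, against 553, 147 and 5.21 CPM in TFEB 34, 41 and 43. Its log2 fold change was 1.31 (SE 1.54), and −0.32 without TFEB 34. Ltbp1 went the other way within the TFEB libraries, at 82.7, 90.5 and 117 CPM, with a log2 fold change of −0.18 (SE 0.20). Ltbp4, needed for fibulin-5 deposition, had the highest CPM of the list and a log2 fold change of 0.21 (SE 0.28).

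Of 19 tested further glycoproteins and assembly factors, 12 were higher (median 0.10), or 6 without TFEB 34, and 1 had an unadjusted p under 0.05, where 1.21% of all genes had one. This was Efemp1, fibulin-3, at 25.8, 24.3 and 9.88 CPM in controls, against 6.17, 5.27 and 10.4 CPM in TFEB 34, 41 and 43. The groups overlapped through control 37 and TFEB 43, and its log2 fold change was −1.46 (SE 0.43), with an adjusted p of 1.00 by edgeR. Hspg2, perlecan, had the highest CPM of these and a log2 fold change of 0.20 (SE 0.22). Mmrn2, an endothelial relative of the emilins, was at −0.18 (SE 0.11) and Vtn, vitronectin, at 0.31 (SE 0.15).

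Of 12 integrin and other receptors of elastic fibre proteins, 9 were higher (median 0.11), or 2 without TFEB 34, among them Itgb5 (0.49, SE 0.51), Itga9 (0.27, SE 0.36) and Itgb1 (0.11, SE 0.20), while Itgb3 stood at −0.34 (SE 0.41). Of 12 tested elastin-degrading proteases and inhibitors, 8 were higher (median 0.11), which was 3 without TFEB 34 and 5 without control 37. The elastase cathepsin S, Ctss, stood at 70.1, 102 and 31.7 CPM in controls, against 258, 97.02 and 27.5 CPM in TFEB 34, 41 and 43 (log2 fold change 0.91, SE 0.79). Mmp14, a membrane-bound collagenase, was at 0.53 (SE 0.63), the protease inhibitor Slpi at −0.67 (SE 0.77) with at most 2.18 CPM in a library, and the cathepsin inhibitor Cst3 at 0.12 (SE 0.19).

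Most, not all, markers of activated fibroblasts moved with the members between libraries. The level of these 12 genes, their mean centred log2 CPM, was 1.37 in TFEB 34 and −2.04 in TFEB 43, and 1.006 in control 36 and −0.90 in control 37. Their summed TPM ran from 198 to 1609.8 in controls and from 100.7 to 3122 in TFEB overexpression, with none at 0. Postn, Cilp and Comp had the highest CPM, and Postn, which encodes periostin of scar fibroblasts, reached 489, 1722 and 181 CPM in controls 35, 36 and 37, against 3366, 1255 and 87.6 CPM in TFEB 34, 41 and 43. Of the 12, 8 were highest in TFEB 34 and 8 lowest in TFEB 43. Lrrc15 went the opposite way, at 18.6, 44.9 and 80.4 CPM in TFEB 34, 41 and 43. Chad and Cilp2 had log2 fold changes of −1.65 (SE 0.52) and −3.30 (SE 1.17), and neither was called by edgeR. The groups did not overlap for Cilp2, as for 4.75% of all genes. It stood at 84.1 CPM in control 35 and at 2.56 to 6.77 CPM elsewhere.

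Macrophage markers moved with them too, from a level of 0.63 in TFEB 34 to −0.59 in TFEB 43, with 9 of 11 tested genes highest in TFEB 34 and summed TPM of 877 to 1827 in controls and 734 to 2690.2 in TFEB overexpression. Lyz2, Csf1r and C1qb had the highest CPM, and none of the 11 was at 0. Mrc1 and Cd163 did not follow, at 58.0, 63.8 and 62.9 CPM and at 16.3, 15.2 and 27.0 CPM in TFEB 34, 41 and 43. Cd163 stood at 34.8, 25.3 and 34.5 CPM in controls 35, 36 and 37, with a log2 fold change of −0.70 (SE 0.25). The 6 cell division genes, led by Mki67, Top2a and Cdk1, were all highest in TFEB 34 and lowest in TFEB 43, at 8.45 to 15.3 and 3.59 to 21.3 summed TPM. Resident fibroblast markers had a narrower level, from 0.24 in TFEB 34 to −0.49 in TFEB 43, and 4 of 12 were highest in TFEB 34. Their summed TPM was 3335 to 4483 in controls and 2555 to 3376 in TFEB overexpression. Gsn, Dcn and Col15a1 had the highest CPM, and none was at 0. In 8 of 12 the TFEB libraries stood in the order 34, 41, 43, but Gsn ran the other way, at 1117, 1483 and 1900 CPM. So did Scara5, at 19.1, 25.4 and 38.3 CPM. Fitted values were higher in TFEB overexpression for 3 of 12 (median log2 fold change −0.18), against 51% of all genes. Smooth muscle markers had levels of 0.30, 0.20 and −0.19 in TFEB 34, 41 and 43 and of −0.28, 0.01 and −0.05 in controls 35, 36 and 37. Of these 14 genes 7 were highest in TFEB 34 and 3 lowest in TFEB 43, and none was at 0. They summed to 1806 to 2789 TPM in controls and 1993 to 3418 in TFEB overexpression. Des had the highest CPM, from 1611 in control 35 to 3321 in TFEB 34, followed by Rgs5 and Abcc9. Which cells the Des reads came from was not tested.

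Other lists had single libraries that stood apart or genes whose groups did not overlap. The 8 mesothelial and epicardial markers were all lowest among the controls in control 37, the lowest control for the members too. They summed to 4.55 TPM there, with Krt8 at 0, against 121 and 206 TPM in controls 35 and 36 and 27.2 to 44.2 TPM in TFEB overexpression. Of 5 tested adipocyte markers, 4 were lower in TFEB overexpression with no overlap, and Adipoq and Cidec were at 0 in TFEB 34. All 7 adipocyte markers summed to 1878 to 2887 TPM in controls and 1494 to 1818 TPM in TFEB overexpression. Fabp4, whose groups overlapped, had the highest CPM of those tested, 341 to 552 CPM over the 6 libraries. Adipoq, Plin1 and Cidec reached at most 29.5, 12.2 and 17.0 CPM, so the sum does not give their level. The endothelial level stayed between −0.06 and 0.03 in all 6 libraries. The part of these cell types in the members' values was not tested.

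Upstream windows of 250 bases before the annotated start were matched in RefSeq (GRCm38.p6) for 6 of the 10 members, in 9 windows. The E-box CACGTG, the core of the sites that TFEB is known to bind, was searched on both strands and was present in 6.02% of all 32851 windows. Among the 6 members with a window it occurred in Fbln1 alone. Whether TFEB binds there was not tested. The window ahead of the long form's start is shown with the E-box in capitals (chr15:85205699-85205948, plus strand).
Fbln1 upstream window: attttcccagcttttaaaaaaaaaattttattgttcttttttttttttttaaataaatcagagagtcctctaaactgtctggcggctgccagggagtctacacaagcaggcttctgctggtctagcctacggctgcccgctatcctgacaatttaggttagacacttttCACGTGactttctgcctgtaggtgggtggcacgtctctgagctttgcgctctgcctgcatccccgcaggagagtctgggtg
The SMAD-binding hexamer CAGACA, searched in the same way, was present in 17.1% of all windows and in those of Emilin1, Fbln1, Fbln5 and Mfap2. The TATA box TATAAA (12.4% of windows), the AP-1 site TGANTCA (6.75%) and the CArG box (1.47%) were not matched in the members' windows. These are matches of letters in these windows only.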

How the data were processed

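The authors deposited 1 table of 62498 RefSeq transcripts with Entrez gene numbers for 6 heart libraries. Per the file headers, each library has TPM, FPKM and read counts. As deposited by the authors, the last are estimated counts per transcript, not whole numbers and not scaled. The TPM and FPKM values deposited by the authors are scaled for length and depth. The submitters' processing notes name RSEM 1.3.1, Bowtie2 2.3.4.3, DESeq2 1.4.5 and HISAT2 2.1.0 with build mm10, and give no role. No source used here gives the strand setting, so reads of overlapping or antisense genes cannot be told apart.

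Here the estimated counts were summed per gene and rounded, giving 17524 genes, of which 117 had no symbol (0.510% of counts). Totals ran from 12942486 to 14969275. Groups were compared in R 4.3.3 with edgeR 4.0.16 after filterByExpr and TMM scaling, by the two-sided quasi-likelihood test (glmQLFit, then glmQLFTest), over 13565 genes with Benjamini-Hochberg adjustment, and genes were called at an adjusted p under 0.05. Single values were compared with an exact two-sided permutation test, for which 0.1 is the smallest p. Intervals are at 95%. On simulated data, the edgeR test recovered 37 of 100 genes changed 2-fold and 95 of 100 changed 4-fold, with 13 false calls. The changed genes were drawn at random from expressed genes, and each gene was simulated independently. The members varied more within groups than most genes (median SD of log2 CPM 1.26 against 0.22) and moved together. These recovery rates therefore do not hold for the members. Transcript shares and shares of the member sum use TPM. Gene positions and upstream windows come from RefSeq tables (GRCm38.p6, the build mm10), and fibulin exons and transcript sequences from GENCODE models of the same build that are paired with the RefSeq models.

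Alternatives were RLE and upper-quartile scaling, DESeq2 1.42.0, limma-voom (limma 3.58.1), no filter, a filter of 10 counts in 3 libraries, limma-trend on log2(TPM + 1) and log2(TPM + 0.1) with TPM of at least 1 in 3 libraries, the cardiomyocyte marker level as a covariate, FPKM for shares, TPM or Col1a1 alone for the collagen ratio, and each library left out in turn. Genes named are the members, the 3 smallest p-values and the gene of highest CPM of each pathway list, the 3 collagens, 3 profile neighbours of each member, Tfeb, Acta2 and the 3 markers of highest CPM of lists that moved with the members. Nppa, Sln, Ddit4, Lrrc15, Chad, Cilp2, Krt8, Adipoq, Cidec, Plin1 and Fabp4 were named after their values were seen. So were Dkk3, Hapln1, Prg4, Penk, Wt1, Mrc1, Cd163 and Scara5. The fits of the pathway lists with libraries left out were added then. The members and lists were chosen with earlier results of these data known. Figures were drawn with matplotlib 3.10.9.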

Additional observations from a re-analysis of the deposited data

How the results depend on the processing

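The edgeR count of called genes was 0 higher and 0 lower, and stayed so under the scalings, filters, limma fits, the covariate and with each library left out. DESeq2 called 1 gene lower, Ddit4 (log2 fold change −1.32, SE 0.26, adjusted p = 0.0090), and 0 members. The number of members with a higher fitted value was 9, and 4 by limma-voom. With 1 library left out it ran from 0 (without TFEB 34) to 10, and was 5 without control 37. The members' median log2 fold change ran from −0.55 to 0.76 with 1 library left out and was −0.016 by limma-voom.

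Of the single members, limma-voom gave −0.021 for Fbn2, −0.011 for Fbln2, −0.063 for Mfap2, −0.038 for Mfap4 and −0.14 for Mfap5. On log2(TPM + 1), Mfap2 was −0.098 and Mfap5 −0.11. On log2(TPM + 0.1), Fbn2 was −0.024, Mfap2 −0.13 and Mfap5 −0.11. With the cardiomyocyte level as a covariate Fbln1 was 0.040. These fits average on the log scale or add a term, and the cause of each turn was not tested. With 1 library left out, the values ran from −0.62 to 1.60 for Eln, −0.34 to 0.83 for Fbn1, −0.56 to 0.69 for Fbn2, −0.24 to 0.15 for Fbln1, −0.35 to 0.46 for Fbln2, −0.54 to 1.13 for Fbln5, −0.57 to 0.65 for Mfap2, −0.59 to 1.04 for Mfap4, −0.63 to 0.73 for Mfap5 and −0.040 to 0.95 for Emilin1. Group differences in shares, collagen ratios and transcript shares moved by less than the SD pooled over both groups in all alternatives run. Some moved by more than the control SD alone, and with 1 library left out the sign changed at least once for 7 of 10 member shares, 6 of 10 collagen ratios and 11 of 15 transcript shares. In fits added after the data were seen, leaving out 1 library gave −0.32 to 3.37 for Ltbp2 and −0.38 to 2.57 for Lox. No paired analysis was possible because the groups share no replicate number. With 3 libraries a group and SEs from 0.25 to 1.14, the spread between libraries limits what could be detected. The part of read depth was not tested, and the lowest counts were 26 for Mfap2 and 45 for Fbn2 in TFEB 43.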
